A study of Mus musculus with 26 samples.

Results

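Compared here were YFP-positive and YFP-negative liver cells after 7 days of injury, taken from a series of 26 mouse liver samples. The members are the 3 arrays of YFP-positive and the 3 arrays of YFP-negative cells at day 7 that came with a scanner file, 6 of the 20 arrays used, and 26670 genes were measured on them. All mice were Foxl1-Cre; RosaYFP, 6 to 10 weeks old, and carried a Cre recombinase gene driven by Foxl1 together with a Rosa26 reporter that turns on the yellow fluorescent protein YFP for good once Cre has acted. Both day 7 groups ate the liver toxin DDC for 7 days, and both were sorted from non-parenchymal cells, the liver cells that are not hepatocytes, after cells with the leukocyte surface protein CD45 had been set aside. The remaining samples are sorted cells of the same kind after 3 and 14 days of DDC and, as day 0, unsorted non-parenchymal cells from mice on chow. Replicates 1, 3 and 4 of each day 7 group were used, and replicate 2 of each is not analysed here. The labels do not say whether an array stands for 1 mouse or a pool, so the p-values below measure the spread between these arrays, which may be partly technical. Foxl1 itself and the YFP reporter are not analysed here.

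DDC blocks the last step of heme synthesis, and the porphyrin that builds up plugs the small bile ducts. The liver answers with a ductular reaction, in which cells with bile duct features multiply around the portal tracts, together with stellate cells and portal fibroblasts that lay down matrix and with leukocytes that move in. Foxl1 is a winged helix transcription factor gene, and its Cre mark has been used to trace cells of the ductular reaction. The question that the comparison addresses is thus which genes set the traced cells apart from the other non-parenchymal cells at the middle of the time course.

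A value below is the log2 of the processed signal of the gene's brightest probe minus the 75th percentile of its array, so 0 is a bright spot and values near -9 or -10 are what the scanner software writes for spots that are not above background. A difference is YFP-positive minus YFP-negative in log2 units, given with its standard error from limma over all 20 arrays, and adjusted p-values are Benjamini-Hochberg values over the 26670 genes. Where a position is given, it is the place of the probe in the mm9 build. No gene passed an adjusted p of 0.05 (0 of 26670, or 0%), the smallest being 0.139, so nothing below is called as changed. At an unadjusted p under 0.05, limma gave 1405 genes (5.27%), 542 of them higher (2.03%) and 863 lower (3.24%) in YFP-positive cells. The 3 YFP-positive arrays all lay above the 3 YFP-negative arrays for 1136 genes (4.28%) and all below them for 1353 (5.09%). These counts of genes without overlap, and the same counts within gene lists, are set beside those shares as a description. Quantile normalization changed the balance, since 55.5% of the genes at an unadjusted p under 0.05 were then higher, against 38.6% as processed here.

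The 6 arrays were of like quality, with 81.9 to 87.2 percent of spots well above background on the YFP-positive and 83.5 to 88.3 percent on the YFP-negative arrays. Over all genes they did not separate by fraction, because correlations were 0.872 to 0.925 within a fraction and 0.829 to 0.922 between fractions. Replicate 1 stood apart in both fractions by its leukocyte genes. The mean log2 signal of 13 neutrophil genes was -4.46 on YFP-positive array 1 and -3.44 on YFP-negative array 1, against 1.11 to 1.89 on the other 4 arrays, and that of 20 macrophage genes was 0.581 and -0.443 against 3.65 to 3.89. Ptprc, which encodes CD45, read -0.86, 4.02 and 3.92 on YFP-positive arrays 1, 3 and 4 and -0.78, 4.38 and 4.38 on YFP-negative arrays 1, 3 and 4. The label of a CD45-negative sort is thus not matched by low Ptprc on arrays 3 and 4 of either fraction. Results are therefore also given without both replicate 1 arrays, a choice made after the data were seen, where 2 arrays against 2 do not overlap upward for 12.9% and downward for 16% of all genes. The slide is known as well, and 2 slides held both fractions, slide 4 with YFP-positive array 3 and YFP-negative array 1, and slide 7 with both arrays 4. In bulk RNA, fewer cells of a type and less RNA per cell cannot be told apart.

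**Figure D1:**
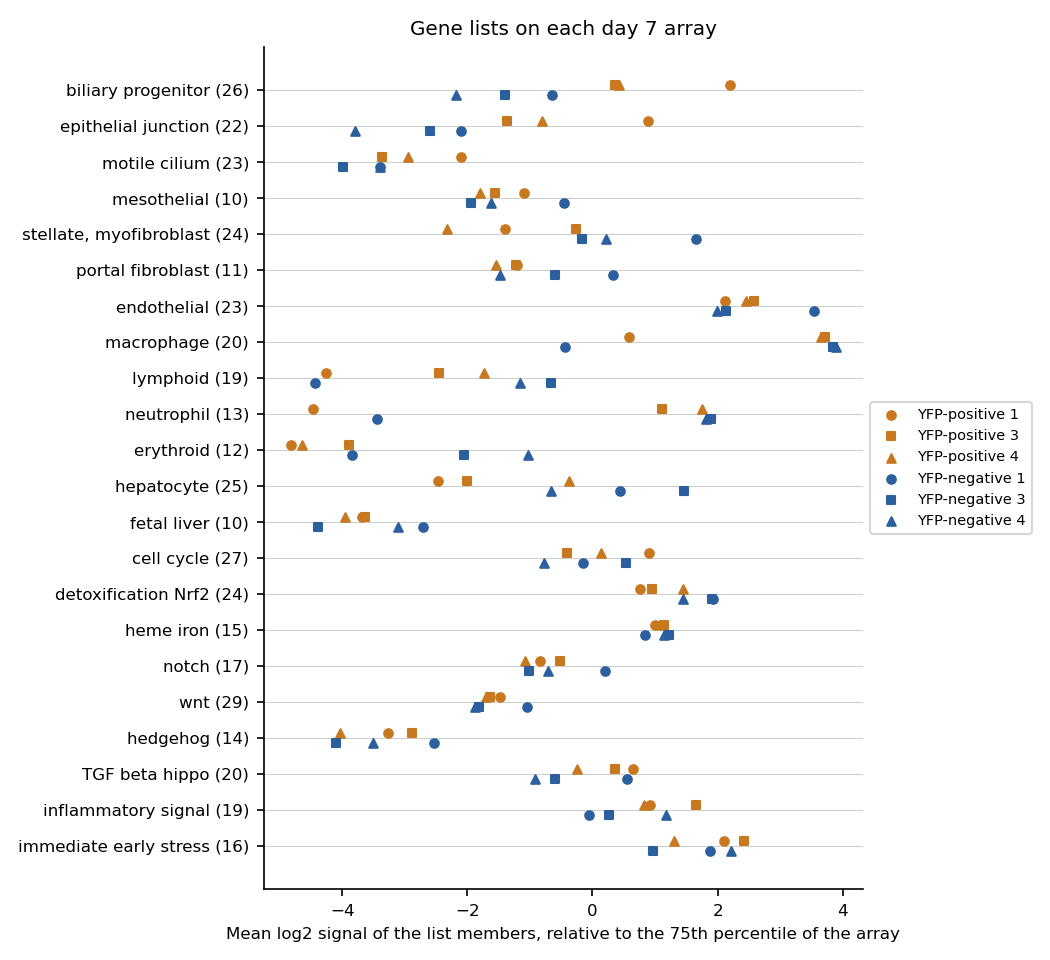
Mean log2 signal of the members of each gene list, relative to the 75th percentile of the array, on each of the 6 day 7 arrays (orange YFP-positive, blue YFP-negative; circle, square and triangle for replicates 1, 3 and 4; number of genes measured in brackets). The biliary and junction means of all 3 YFP-positive arrays lie above those of all YFP-negative arrays, while macrophage and neutrophil means split replicate 1 from the other arrays in both fractions.

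Bile duct and progenitor genes were higher on the YFP-positive arrays, with the largest share of members without overlap among the 22 lists. All 26 measured genes of this list had a positive difference, with a median of 2.35 against 0 over all genes. For 20 of the 26 (76.9%) the arrays did not overlap, for none in the opposite direction, and 12 had an unadjusted p under 0.05. The list mean was 2.2, 0.363 and 0.425 on YFP-positive arrays 1, 3 and 4 and -0.642, -1.39 and -2.18 on the YFP-negative ones. YFP-positive array 1 was the highest and YFP-negative array 4 the lowest, so the spread within each fraction was wide beside the gap between them.

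Among the structural markers, Krt19, a keratin of bile duct cells (chromosome 11, 100002392 to 100002451), read 2.9, 1.41 and 1.41 on YFP-positive arrays 1, 3 and 4 and -0.45, -1.99 and -3.28 on the YFP-negative arrays. The lowest YFP-positive array was above the highest YFP-negative one, with a difference of 3.81 ± 1.35 (14.1-fold, adjusted p = 0.756 by limma). Its keratin partner Krt7 read 3.61, 2.59 and 2.14 against 0.32, -1.55 and -1.93 and did not overlap either (3.83 ± 1.43). Cldn7, a claudin of epithelial tight junctions, read 3.23, 1.25 and 1.51 against -0.53, -1.44 and -3.85, the difference with the smallest unadjusted p of the list (3.94 ± 1.24, 15.4-fold, adjusted p = 0.679 by limma). Epcam, the cell adhesion protein used to sort duct cells, read 4.38, 2.7 and 3.15 against 1.8, 0.66 and -1.46. Epcam thus reached well into the range of bright spots on YFP-negative array 1, the highest of its fraction for these genes.

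Transcription factors of the biliary lineage ran the same way with smaller steps. Sox9 read 3.85, 1.79 and 1.99 on the YFP-positive and 1.2, -0.57 and -0.68 on the YFP-negative arrays, a difference of 2.56 ± 1.22. Onecut1 (2.3 ± 1.17) and the epithelial factor gene Ehf (2.72 ± 0.89) did not overlap, whereas Elf3 did (2.52 ± 2.23). Of the genes that carry out duct secretion, the chloride channel gene Cftr read 1.97, 0.19 and -0.23 against -0.72, -2.21 and -1.14 (2 ± 0.85). Sctr, the secretin receptor, was dim throughout, at -4.26, -7.57 and -7 against -9.85, -9.64 and -9.35, and was well above background on 2 of 3 YFP-positive and 0 of 3 YFP-negative arrays. Because the remaining YFP-positive reading was not well above background either, neither a ratio nor a bound is given for it. Where a bound is given for other genes, as at least a fold, the bright group was well above background on every array. For each array of the dim group the bound takes the lowest signal of any probe well above background, or the gene's own signal if higher.

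The smallest difference of the list was that of the anion exchanger gene Slc4a2 (0.42 ± 0.3). Spp1, osteopontin, read 5.76, 5.19 and 5.2 against 4.58, 4.66 and 3.94 (0.99 ± 0.67), Cd24a differed by 0.64 ± 0.67 and Pkd2, a cilium channel, by 0.46 ± 0.38. Prom1, the progenitor surface marker CD133, overlapped, at 1.39, -1.11 and 0.1 against -0.91, -3.06 and -7.52 (3.96 ± 1.68), and was not well above background on YFP-negative array 4. Without both replicate 1 arrays 23 of 26 members (88.5%) did not overlap, and the median was 2.22. Within slides the median, relative to that of all genes, was 0.89 on slide 4 and 2.65 on slide 7, with 24 and 25 of 26 members positive. YFP-positive array 3 and YFP-negative array 1, the pair of slide 4, are the lowest and highest arrays of their fractions on this list. The authors' deposited table, which gives a signed fold change of each group against day 0, lists Krt19 at 7.09 for YFP-positive and -1.11 for YFP-negative cells at day 7, and puts all 26 members higher in the YFP-positive group.

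**Figure D2:**
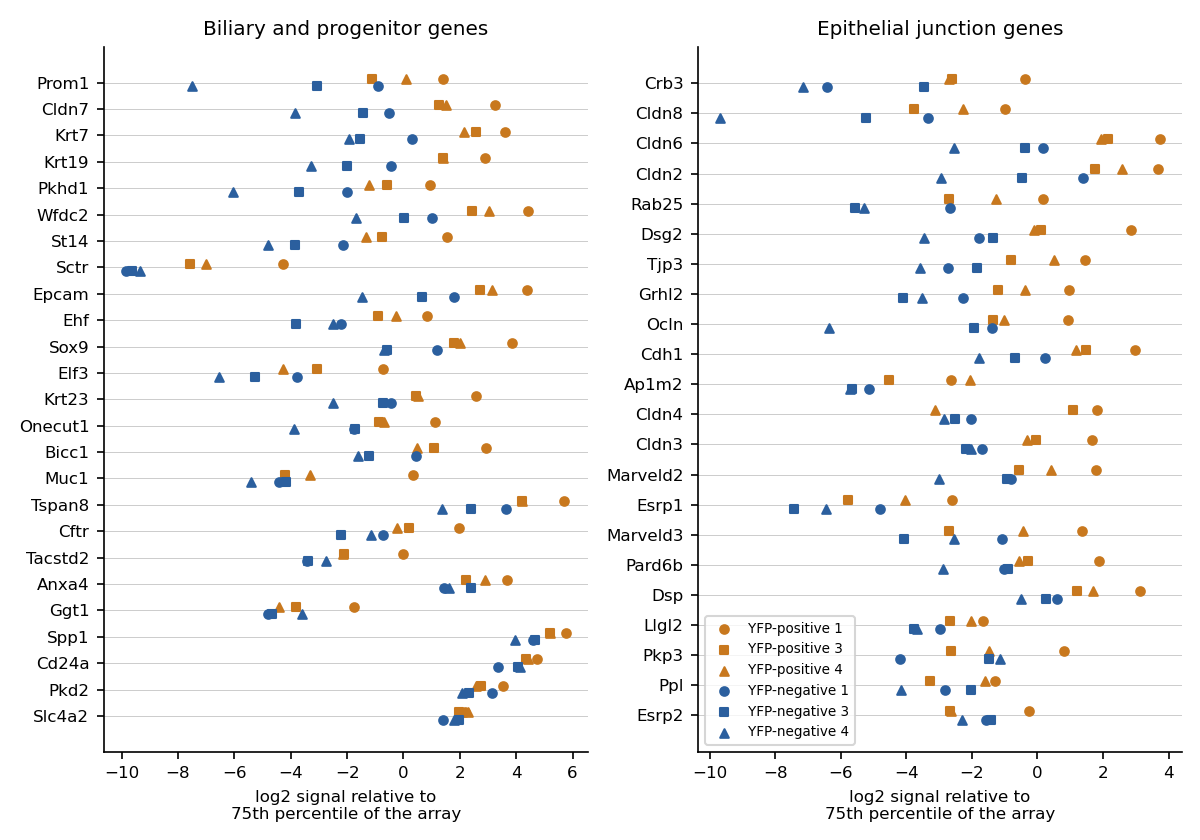
log2 signal relative to the 75th percentile of the array for each member of the biliary and progenitor list (left) and the epithelial junction list (right) on the 6 day 7 arrays, sorted by the difference between fractions, with 1 biliary gene left out. Most genes show the orange YFP-positive points to the right of the blue YFP-negative points, and YFP-positive array 1 (circles) is the highest for most of them.

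Pkhd1, the fibrocystin gene of bile duct and kidney cilia, read 0.94, -0.57 and -1.22 against -2.01, -3.72 and -6.05, with no overlap (3.64 ± 1.43, 12.5-fold, adjusted p = 0.825 by limma).

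Epithelial junction and polarity genes ran with the biliary list. Of 22 members, 21 were higher with a median of 2.41, 14 did not overlap upward (63.6%) and none downward, and 11 had an unadjusted p under 0.05. Cdh1, E-cadherin, read 2.98, 1.48 and 1.18 on YFP-positive arrays 1, 3 and 4 and 0.23, -0.69 and -1.79 on the YFP-negative arrays (2.63 ± 1.22, 6.19-fold). The polarity gene Crb3 (3.78 ± 1.46, well above background on 2 of 3 YFP-negative arrays), the tight junction genes Cldn6 (3.54 ± 1.5) and Cldn2 (3.35 ± 1.55) and Dsg2, a desmoglein (3.16 ± 1.4, with 1 other probe in the opposite direction), did not overlap either. Grhl2, a transcription factor of epithelial cells, had the smallest unadjusted p of the list, with readings of 0.97, -1.21 and -0.37 against -2.26, -4.11 and -3.53 (3.1 ± 0.96, adjusted p = 0.679 by limma). Of the splicing regulators of epithelial cells, Esrp1 (2.07 ± 1.27) was higher with overlap and Esrp2 stood at -0.09 ± 0.91, where its other probe gave the opposite sign. Cldn4 read 1.83 and 1.08 on YFP-positive arrays 1 and 3 but -3.14 on array 4, below every YFP-negative array. The list median was 2.22 without both replicate 1 arrays, where 17 members (77.3%) lay above without overlap and 2 below. It was 0.58 on slide 4 and 3.4 on slide 7 relative to all genes.

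Genes of the motile cilium differed less. Foxj1, the factor that switches on the motile cilium program, read 3.84, 1.27 and 1.67 against -0.59, -2.07 and -3.48 and had no overlap (4.31 ± 1.45, 19.8-fold, adjusted p = 0.729 by limma). The axonemal dynein genes Dnali1 (-0.15, -3 and -1.49 against -4.65, -5.95 and -3.7) and Dnah5 (0.67, -5.47 and -3.03 against -5.99, -7.67 and -5.8) and the tektin gene Tekt1 lay above as well, though 1 other probe of Dnah5 had the opposite sign. Of the 23 measured members 18 had a positive and 5 a negative difference. The median was 0.59, 4 lay above without overlap (17.4%), and the radial spoke gene Rsph4a lay below, at -5.01, -7.29 and -4.93 against -3.18, -3.55 and -4.53. Hydin, a central pair gene, stood at 0.22 ± 0.44 and Ccdc39 at -0.37 ± 0.36. Of mesothelial genes only the broad epithelial keratin gene Krt8, 1 of 10, lay above without overlap (1.18 ± 0.77), and the mesothelial marker gene Msln overlapped (0.26 ± 1.15).

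Stellate cell and myofibroblast genes were lower in YFP-positive cells. The median of 24 genes was -2.2, 21 were lower, 9 lay below without overlap (37.5%) and 9 had an unadjusted p under 0.05 in that direction. The list mean was -1.39, -0.262 and -2.32 on YFP-positive arrays 1, 3 and 4 and 1.65, -0.163 and 0.224 on the YFP-negative arrays, so array 3 of each fraction read nearly alike. Lum, lumican, read -3.83, -0.05 and -2.2 against 2.34, 0.16 and 0.56 (-3.05 ± 1.41), and Col1a1, the main fibrillar collagen gene (chromosome 11, 94813075 to 94813134), read -1.12, -0.69 and -1.87 against 2.66, 1.25 and -0.18 (-2.47 ± 1.67). Neither overlapped, but the gap for both was small beside the spread within a fraction.

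The markers of the quiescent stellate cell named here had negative differences, apart from Gfap. Lrat, which esterifies vitamin A for storage, read -2.29, -0.19 and -1.97 against 1.44, 0.56 and 0.93 (-2.46 ± 0.71, 5.49-fold, adjusted p = 0.642 by limma). Reln, the secreted protein reelin, read -1.65, 0.78 and -2.53 against 2.98, 1.05 and 1.45 (-2.96 ± 1.13). Ngfr had the largest difference of the list (-3.79 ± 1.05) but overlapped, because YFP-positive array 3 read -0.37 and YFP-negative array 3 read -0.42, and its other probe had the opposite sign. Gfap, also a marker of quiescent stellate cells, overlapped with a small positive difference (0.43 ± 0.59), where its 2 other probes had the opposite sign. Of the contractile genes, Myh11 lay below without overlap (-0.32, -0.38 and -2.54 against 3.62, -0.12 and 1.28), whereas Acta2, smooth muscle actin, was level at 4.26, 4.57 and 4.64 against 4.04, 4.46 and 5.04 (-0.02 ± 0.31). The pericyte gene Rgs5 went the other way, at 4.25, 3.46 and 3.8 against 3.43, 2.46 and 2.38 (1.08 ± 0.66). The median was -1.61 without both replicate 1 arrays, -2.19 on slide 4 and -2.41 on slide 7.

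Portal fibroblast genes were less uniform, with a median of -0.92 over 11 genes, 2 below without overlap, Fbln1 and Cd34, and 1 above. Fbln1, a fibulin of elastic matrix, read -2.51, -2.35 and -2.59 against 0.28, -1.23 and -1.4 (-1.7 ± 0.68), while Thy1, the defining marker, overlapped (-0.92 ± 1.18). Eln, elastin, read -0.28, -3.4 and -2.19 against 2.39, 1 and -0.43 (-2.94 ± 1.19). YFP-negative array 1 held the highest reading of Eln and Fbln1, and without both replicate 1 arrays the list median was -0.23. Gas6, a ligand of the receptor Axl, lay above at 5.04, 4.3 and 4.32 against 4.21, 3.68 and 4.04 (0.58 ± 0.43).

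Endothelial, macrophage and neutrophil genes did not mark off the fractions across all 6 arrays. None of the 23 endothelial genes was without overlap, the median was -0.06, and Pecam1, the vessel marker CD31, read 1.69, 1.9 and 2.02 against 3.67, 2.02 and 1.96, where its other probe had the opposite sign. YFP-negative array 1 was highest for all 23 of them (list mean 3.54, against 1.99 to 2.58 on the other 5 arrays). Without both replicate 1 arrays 14 of 23 (60.9%) lay above, so the order of the fractions on this list rests on array 1. None of the 20 macrophage genes was without overlap (median 0.17), with Adgre1, the F4/80 antigen, at 0.56, 4.16 and 4.12 against -1.36, 4.34 and 4.11. None of 13 neutrophil genes was either (median -0.68). Without both replicate 1 arrays 8 of the 20 macrophage genes (40%) and 4 of the 13 neutrophil genes (30.8%) lay below. Of 19 lymphoid genes (median -0.3) the cytotoxic granule gene Nkg7 (-2.77 ± 1.13) and the T cell kinase gene Lck (-2.64 ± 1.02) lay below without overlap. Without both replicate 1 arrays 12 of the 19 (63.2%) did.

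Red cell genes were far brighter on YFP-negative arrays 3 and 4. Hba-a1, an alpha globin, read -1.67, 1.48 and 1.57 on the YFP-positive arrays and 2.48, 6.39 and 7.01 on the YFP-negative arrays (-4.83 ± 1.5, 28.5-fold, adjusted p = 0.679 by limma). Hbb-b1, a beta globin, read -2.84, 1.58 and 1.25 against 2.6, 6.3 and 7.01, and its probe may also read near-identical globin genes. Alas2, the first enzyme of heme synthesis in red cell precursors, overlapped because YFP-negative array 1 was low (-2.74, -3.53 and -3.71 against -3.19, 3.82 and 4.87). The median of the 12 measured genes was -1.31, and 4 lay below without overlap (33.3%). The regulator Klf1 lay barely above, at -6.78, -3.87 and -7.83 against -7.86, -8.79 and -7.84 (2 ± 1.81). Klf1 was well above background on 2 of 3 YFP-positive and 1 of 3 YFP-negative arrays. The list median was -2.31 without both replicate 1 arrays and -0.29 with the slide as a fixed block.

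**Figure D3:**
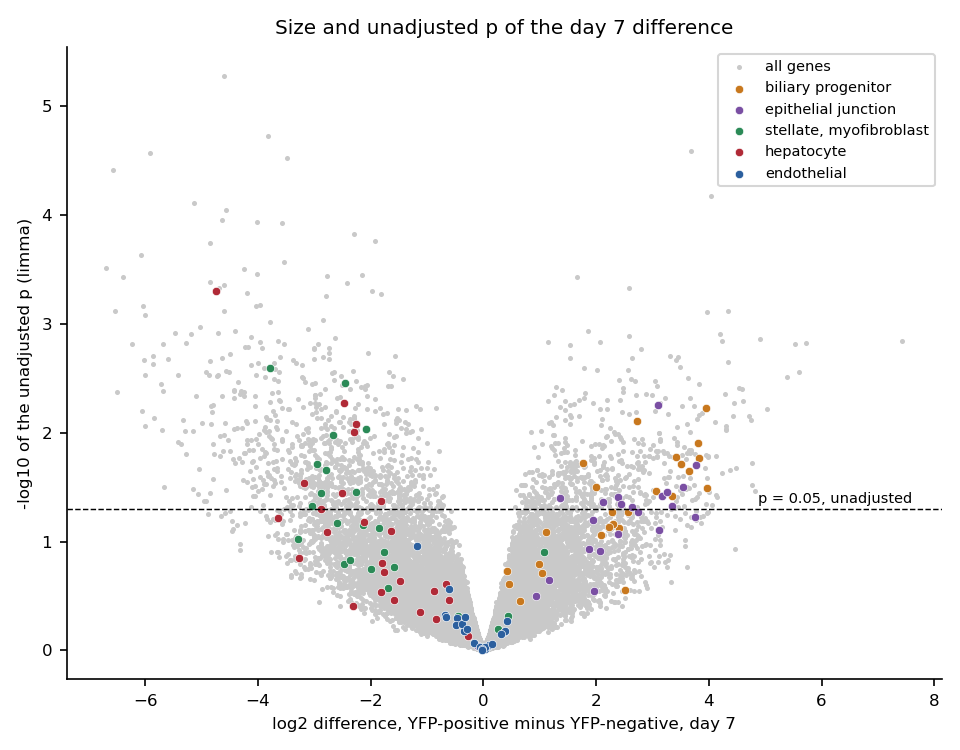
Difference in log2 units (YFP-positive minus YFP-negative, x axis) against -log10 of the unadjusted limma p (y axis) for all 26670 genes in grey, with the members of 5 lists in colour and the unadjusted p of 0.05 as a dashed line. Biliary and junction genes sit on the right and hepatocyte and stellate genes on the left, with endothelial genes near 0, and no gene passed after adjustment.

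Hepatocyte genes were lower in YFP-positive cells, although both fractions were sorted from non-parenchymal cells. All 25 measured genes had a negative difference, the median was -1.82, 11 lay below without overlap (44%), and 8 had an unadjusted p under 0.05. The list mean was -2.47, -2.01 and -0.371 on YFP-positive arrays 1, 3 and 4 and 0.445, 1.46 and -0.66 on the YFP-negative arrays, so YFP-negative array 4 lay below YFP-positive array 4. Cyp1a2, a drug-metabolizing cytochrome P450 of hepatocytes, read -6.73, -5.96 and -4.41 against -1.18, 0.69 and -2.39 (-4.74 ± 1.08, 26.8-fold, adjusted p = 0.426 by limma). The amino acid catabolism genes Hal (-3.64 ± 1.8) and Hpd (-3.28 ± 2.11) lay below too, with readings of -8.7 and -6.07 on YFP-positive array 1. Hal was well above background on 2 of 3 YFP-positive arrays. Leaving out 1 array, the difference ran from -5 to -1.37 for Hal and from -4.48 to -1.54 for Hpd. Albumin, Alb, was bright in both fractions, at 4.33, 4.02 and 4.5 against 4.96, 5.64 and 4.27 (-0.67 ± 0.56). On slide 7, with both arrays 4, the list median was 0.45 relative to all genes, against -2.39 on slide 4, and without both replicate 1 arrays it was -1.55. The part of hepatocyte RNA in other differences was not tested.

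Genes of fetal liver showed no order, with none of 10 without overlap, a median of -0.19 and Afp, alpha-fetoprotein, at -4.17, -2.52 and -2.83 against -4.49, -1.31 and -2.2 (-0.51 ± 1.37).

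Glutathione transferases join glutathione to toxic compounds, and 10 of their genes are on the detoxification list. Of these 8 had a negative and 2 a positive difference, and 4 lay below without overlap. Gstm3 read 0.86, 1.14 and 3.18 on YFP-positive arrays 1, 3 and 4 and 4.79, 4.73 and 4.49 on the YFP-negative arrays (-2.94 ± 0.76, 7.66-fold, adjusted p = 0.588 by limma). Gsta1 read 2.03, 1.78 and 3.64 against 4.92, 4.87 and 4.44 (-2.26 ± 0.78), and Gsta2 read 1.05, 1.58 and 3.55 against 4.86, 4.93 and 4.3 (-2.64 ± 1.25). The 3 YFP-negative arrays were close to each other for each of these, and YFP-positive array 4 was the highest of its fraction. Gstm1 was the other member below (-1.67 ± 0.47), while Gstm4 (0.01 ± 0.5) and Gstt1 (0.1 ± 0.97) were level. Near-identical copies in this family could share a probe, so the genes may not be separate measurements. The authors' deposited table gives Gsta1 at 9.22 in YFP-positive and 42.3 in YFP-negative cells as folds of day 0, so both fractions stood above chow-fed cells there.

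Other detoxification genes varied by role. Ugdh, which makes the sugar for glucuronidation, read -0.24, -0.21 and 0.27 against 1.88, 2.3 and 1.53 (-1.97 ± 0.45, adjusted p = 0.426 by limma), and Gclc, the rate-limiting enzyme of glutathione synthesis, lay below as well (-0.79 ± 0.29). Nqo1, a quinone reductase and standard Nrf2 target, overlapped at 0.58, 0.6 and 1.34 against 3.22, 2.38 and 0.74. Gpx2, a glutathione peroxidase of epithelia, lay above, at -0.9, -1.31 and -1.65 against -3.39, -3.8 and -3.42 (2.26 ± 0.84, 4.78-fold). Over the 24 genes 7 lay below without overlap (29.2%) and 2 above, Gpx2 and the malic enzyme gene Me1, with a median of -0.53. Relative to all genes the list median was -1.02 on slide 4 and 0.28 on slide 7, where 14 of the 24 were higher. The summed linear signal of the hepatocyte list, in units of the 75th percentile, was 30.6, 27 and 56.8 on YFP-positive arrays 1, 3 and 4 and 92.6, 167 and 54.1 on the YFP-negative arrays. The part of hepatocyte RNA in the detoxification differences was not tested.

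**Figure D4:**
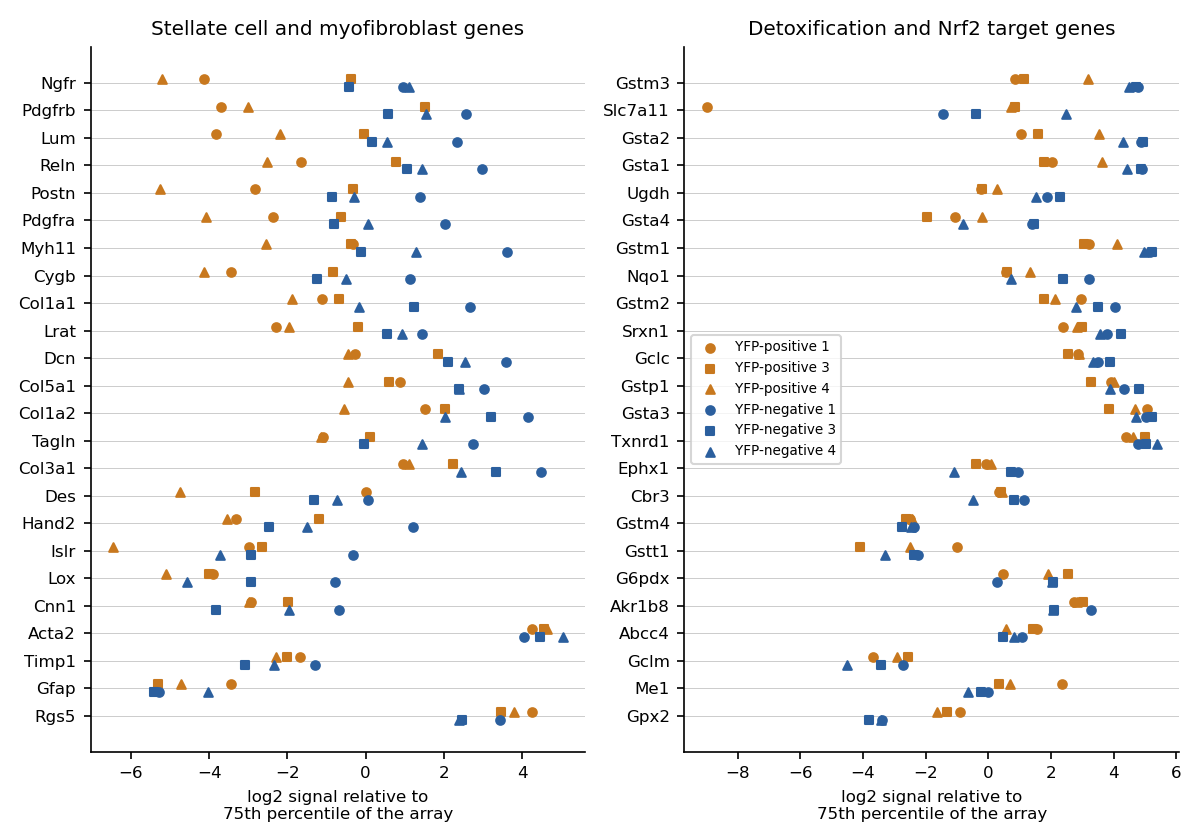
log2 signal relative to the 75th percentile of the array for each stellate cell and myofibroblast gene (left) and each detoxification gene (right) on the 6 day 7 arrays, sorted by the difference between fractions. In the left panel YFP-positive array 3 (orange squares) often falls beside the YFP-negative arrays, and in the right panel Gstm3, Gsta1 and Ugdh separate the colours while Gpx2 does so in the other direction.

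Heme and iron genes, the pathway that DDC blocks, showed little order. The median of 15 genes was 0.05, none lay above without overlap and 1 lay below. That gene was Fech, ferrochelatase, the enzyme that DDC inactivates, at 1.74, 1.03 and 1.85 against 1.89, 2.43 and 2.77 (-0.82 ± 0.53), where its other probe had the opposite sign. Alas1, the rate-limiting enzyme outside red cells, stood at 0.11 ± 0.36. Hmox1, which breaks heme down, followed the replicate and not the fraction, at 1.17, 4.09 and 3.78 against 0.91, 4.1 and 4.4.

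Of the signalling pathways known from bile duct repair, Wnt genes had 3 of 29 above (10.3%) and 2 below (6.9%) without overlap. Over all genes these shares were 4.28% and 5.09%, and the Wnt median was -0.01. The ligand gene Wnt10a read -2.47, -5.13 and -3.06 against -5.39, -9.65 and -8.31 (4.23 ± 1.09, adjusted p = 0.588 by limma), and it was well above background on 1 of the 3 YFP-negative arrays. Znrf3, a ligase that removes Wnt receptors, lay above (2.06 ± 0.83), as did the co-receptor gene Lrp6, whose other probe had the opposite sign. Sfrp1, a secreted Wnt antagonist, read -3.23, -5.76 and -5.99 against 0.93, -2.1 and -2.02 (-3.93 ± 1.03), and Tbx3, a target gene well above background on 1 of 3 YFP-positive arrays, lay below too (-2.28 ± 0.71). Notch genes had none above and 2 of 17 below (11.8%). These were the receptor gene Notch1 (1.5, 1.97 and 1.83 against 2.92, 2 and 2.24) and the target gene Hey1 (-0.71 ± 0.56). The duct ligand gene Jag1 (0.69 ± 0.64) and the target gene Hes1 (0.81 ± 0.66) overlapped. None of 14 Hedgehog genes was without overlap, and the ligand gene Shh was well above background on 2 YFP-positive and 1 YFP-negative array.

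TGF-beta and Hippo pathway genes had 4 of 20 above without overlap (20%) and none below, with a median of 0.44. Relative to all genes the median was -0.4 on slide 4, where 12 of the 20 were lower, and 0.7 on slide 7, where 16 were higher. Ankrd1, a target of the Hippo effector YAP (chromosome 19, 36186809 to 36186868), read 1.49, -0.24 and -1.31 against -1.74, -3.67 and -7.79 (4.38 ± 1.72). It was not well above background on YFP-negative array 4, and the difference was 2.68 without that array. Tgfb3, a TGF-beta ligand (1.37 ± 0.53), Itgav, an integrin subunit that helps to activate the latent ligand (1.37 ± 0.69), and the signal transducer gene Smad3 (0.89 ± 0.44) were the other members, and 1 other probe of Itgav had the opposite sign. The better known YAP targets Ctgf (0.75 ± 0.66) and Cyr61 (0.31 ± 0.83) overlapped. The Ankrd1 promoter is shown because YAP acts through TEAD factors. The window runs from 250 bases before to 50 after the gene start and is RefSeq, GRCm38.p6, chr19:36119795-36120094, minus strand, and capitals mark the TEAD letters GGAATG.

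Ankrd1 promoter: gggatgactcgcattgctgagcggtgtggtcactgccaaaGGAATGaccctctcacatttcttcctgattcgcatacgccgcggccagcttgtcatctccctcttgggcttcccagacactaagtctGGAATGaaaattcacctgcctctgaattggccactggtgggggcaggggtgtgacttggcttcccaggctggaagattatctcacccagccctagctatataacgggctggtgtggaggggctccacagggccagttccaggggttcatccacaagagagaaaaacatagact

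These letters start 210 and 123 bases before the gene start. On either strand they occur in 4817 of the 32851 windows (14.7%), and in 3 of the 12 list genes that matched a window, Ankrd1, Amotl2 and Yap1. These 12 genes have 15 windows, and the list is counted by gene, so its count is not directly comparable with the share of windows. Amotl2 (0.05 ± 0.49) and Yap1 (-0.03 ± 0.54) overlapped.

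Inflammatory signal genes had 4 of 19 above without overlap (21.1%) and none below, with a median of 0.32. Relative to all genes the median was 1.02 on slide 4 and -0.91 on slide 7, where 11 of the 19 were lower. Cxcl5, a neutrophil-attracting chemokine of epithelial cells, read 3.46, 2.14 and 1.44 against 1.41, -0.99 and -3.31 (3.31 ± 1.3, 9.93-fold), where YFP-positive array 4 lay just above YFP-negative array 1. Tnfrsf12a, the receptor Fn14 of the TWEAK signal that drives duct growth, read 2.25, 0.81 and 1.07 against -0.22, -0.42 and -1.29 (2.02 ± 0.85), while its ligand gene Tnfsf12 stood at 0.26 ± 0.48. Il1rn, the IL-1 receptor antagonist (1.85 ± 0.94), and Lcn2, lipocalin (1.28 ± 1.4), lay above, and the chemokine gene Ccl20 overlapped (1.37 ± 0.64). Immediate early and stress genes showed no order, with Fos at -0.01 ± 0.61. Of the 16, 1 lay above without overlap (6.25%, against 4.28% over all genes). That gene, Myc, read 2, 2.34 and 2.04 against 0.96, 1.01 and 2 (0.81 ± 0.45). YFP-positive array 1 and YFP-negative array 4 were thus level on Myc to the digits given.

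Cell cycle genes did not mark off the fractions. Of 27 genes 23 had a positive difference, but the median was 0.27, and 1 gene, the replication helicase subunit gene Mcm6, lay above without overlap (0.51 ± 0.34). Mki67, the Ki-67 antigen, read 3.47, 1.71 and 2.76 against 1.54, 2.48 and 1.68 (0.74 ± 0.6). Both fractions stood above day 0 on this gene, which read 1.01 and 0.27 there.

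Outside the lists, the 12 genes named for the largest positive differences included several that were not well above background on every YFP-negative array. Pax1, a paired box transcription factor, read 0.98, -1.53 and 0.44 against -3.46, -9.45 and -9.47 and was well above background on 1 of the 3 YFP-negative arrays (7.43 ± 1.91, adjusted p = 0.588 by limma). Slc9b2, a sodium/hydrogen exchanger, was well above background on all 3 YFP-positive and none of the YFP-negative arrays and was at least 16.3-fold higher. Mmp7, matrilysin, a protease of injured duct epithelium, read 4.11, 2.63 and 2.22 against 0.86, -1.52 and -5.49 (5.03 ± 1.58, 32.8-fold). The other 9 were Ano9 (5.6), Fam163a (5.52), Tox3 (5.38), Ildr1 (4.9), Kcnma1 (4.81), Frem2 (4.77), Asz1 (4.74), Nipal2 (4.71) and Uts2b (4.58). Ildr1, a protein of tricellular junctions, had readings of -0.77, -2.98 and -0.56 against -6.7, -6.66 and -5.63, with 1 other probe in the opposite direction. For Frem2, an extracellular matrix protein of epithelial basement membranes, 1 other probe did the same.

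None of the 12 genes named for the largest negative differences was well above background on all 3 YFP-positive arrays. Ccbe1, which encodes a secreted protein needed for lymphatic vessels, read -10.42, -5.15 and -9.95 against -1.75, -2.03 and -2.02, with 1 of 3 YFP-positive arrays well above background (-6.57 ± 1.15, adjusted p = 0.17 by limma). Without YFP-positive array 3, the one with signal, it passed (adjusted p = 0.00523 by limma), but both remaining YFP-positive readings were then not well above background, so that fit gives no measured size. Kif26b, a kinesin family gene, Dmp1, a matrix phosphoprotein, and Kank4 were well above background on none of the YFP-positive and all of the YFP-negative arrays, and were at least 23.2-fold, 19.1-fold and 22.6-fold lower. Themis, a T cell signalling gene, read -6.97, -8.28 and -9.93 against -3.18, -2.91 and -1.34 (-5.92 ± 1, adjusted p = 0.161 by limma). Others were Antxr1 (-6.4), Pde3a (-6.08), Kcna5 (-6.06), Akr1d1 (-6.02), Cap2 (-6.01) and Adh7 (-6.01). In all, 106 genes were well above background on all YFP-negative and no YFP-positive arrays, and 10 genes the other way round.

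The gene with the smallest p, Gckr, the regulator of glucokinase in hepatocytes, was outside the naming rule and was chosen after its value was seen. Gckr read -5.9, -5.45 and -3.9 on the YFP-positive and -0.49, -0.24 and -0.68 on the YFP-negative arrays, well above background on all 6 (-4.61 ± 0.68, 24.5-fold, adjusted p = 0.139 by limma). Without YFP-positive array 4 it passed (-5.21, adjusted p = 0.0369 by limma). At day 3 the difference of Gckr was 0.06 and at day 14 it was -1.54. The test of day 7 against day 3 gave -4.67 ± 0.93 (adjusted p = 1 by limma), so the difference between days did not pass.

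Against the other days, the day 7 difference between fractions was not shown to be particular to day 7. By limma 0 genes passed for day 7 against day 3, with 766 at an unadjusted p under 0.05 (2.87%), and 0 for day 7 against day 14, with 939 (3.52%) and a smallest adjusted p of 0.0589. Fitted medians, relative to all genes, were 2.27 at day 3 and 2.69 at day 14 for the biliary list, and -1.89 and -3.89 for the stellate list. The hepatocyte list stood at -0.75 and -1.09. Col1a1 differed by -3.3 at day 3 and -9.08 at day 14, against -2.47 at day 7, and day 7 minus day 14 was 6.62 ± 2.51 (adjusted p = 1 by limma). Day 3 had 4 YFP-positive and 3 YFP-negative arrays, and day 14 had 2 YFP-positive and 3 YFP-negative arrays. The medians were not tested against each other.

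**Figure D5:**
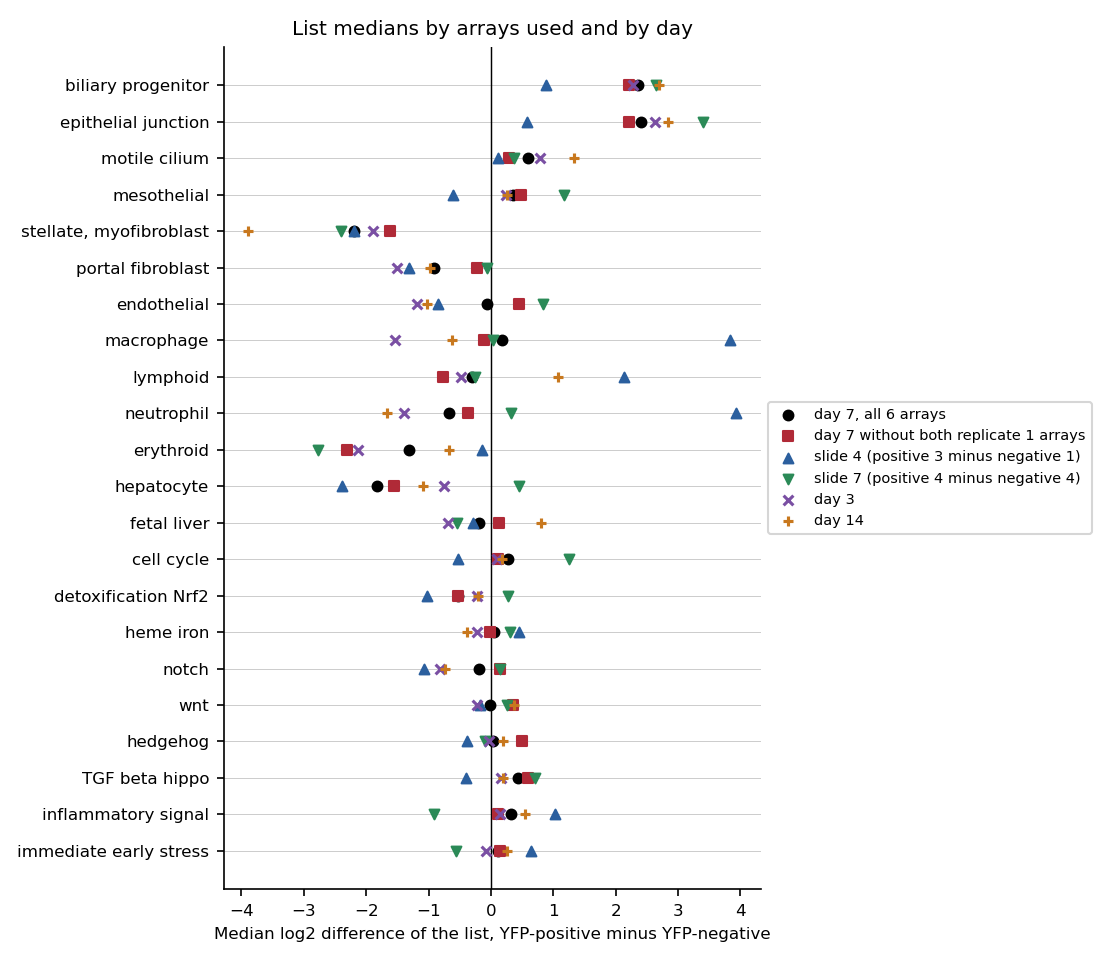
Median log2 difference between YFP-positive and YFP-negative cells for each list at day 7 with all 6 arrays, at day 7 without both replicate 1 arrays, within slides 4 and 7 (1 array of each fraction, relative to the median of all genes) and at days 3 and 14 (relative to the median of all genes). The biliary, junction and stellate medians keep their side of 0 in every case shown, while the macrophage and neutrophil medians are 3.83 and 3.93 on slide 4, where YFP-negative array 1 is the partner.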

How the data were processed

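Agilent 1-colour arrays of amplified, Cy3-labelled RNA were used. Intensity values are the processed signals that the authors deposited, background-subtracted by Feature Extraction 10.5.1.1 per the file headers (9.53 per the submitters' processing notes). Fold changes against day 0, a ratio scale, and false discovery rates in percent come from the authors' deposited table, whose test is not given in the sources used here.

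From 43379 non-control spots, outlier spots were left out, log2 signals were set relative to the 75th percentile of each array and averaged per probe (41174 probes). A probe was kept if at least 2 arrays had it well above background (39623 probes), and the brightest probe stood for each of 26670 genes. Names were updated through RefSeq (GRCm38.p6) by accession for 16255 genes, symbol for 2388 and synonym for 859, and 7168 were not matched. limma 3.58.1 in R 4.3.3 was fitted to 7 groups on 20 arrays, with Benjamini-Hochberg adjustment, and the code was tested on simulated data. The number of arrays limits the precision.

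Members and gene lists were chosen with earlier results of these data known. Named genes were the 12 largest differences in each direction among genes with a symbol that did not overlap, were measured above background on each array of the brighter fraction and had an unadjusted p under 0.05. From each list came its first member and up to 3 non-overlapping members in each direction, and other list members were named after their values were seen. Alternatives were other background correction, scaling, filters, probe rules, the slide as a block, the replicate number as a block and leaving out each array. Samples without a scanner file are not analysed here. A few genes are not reported here, though counts and medians of the lists include them.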

Additional observations from a re-analysis of the deposited data

How the results depend on the processing

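Across the alternatives tried, 11 of the named genes changed sign in at least 1 setting, and the cause was not tested. Leaving out 1 array gave 0 to 4 genes at an adjusted p under 0.05 by limma (0 without YFP-negative array 3), 1747 to 2984 genes higher and 2153 to 3007 lower without overlap, where fewer arrays overlap less by construction. Quantile normalization gave 2189 higher, normexp gave 2292 lower, and leaving out both replicate 1 arrays gave 3422 and 4267. For day 7 against day 3 the count was 0 to 1, and for day 7 against day 14 it was 0 to 1, or 2 with the stricter filter and 2 with the slide as a fixed or a random block. List medians moved for portal fibroblast genes (-0.23 without both replicate 1 arrays, -1.38 to -0.3 leaving out 1 array), detoxification genes (-0.96 to -0.29 leaving out 1 array), heme genes (0.29 with the slide block, 0.38 within slides, -0.18 to 0.28 leaving out 1 array) and Wnt genes (0.36 without both, -0.18 to 0.43 leaving out 1). Leaving out 1 array also took the medians across 0 for neutrophil (-2.7 to 1.35), macrophage (-1.27 to 1.38), lymphoid (-1.75 to 0.42), endothelial (-0.43 to 0.3), fetal liver (-0.7 to 0.02), cell cycle (-0.17 to 0.87), Hedgehog (-0.15 to 0.26), TGF-beta and Hippo (-0.07 to 0.99) and immediate early genes (-0.15 to 0.43), and the motile cilium median ran from 0.23 to 0.8. With the slide as a fixed block, reversed values were Msln -0.1, Thy1 0, Ptprc 0.77, S100a8 0.49, Afp 0.83, Alas1 0 and Tgfb1 0.08. Within slides they were Msln -1.44, Ptprc 2.17, S100a8 1.97, Afp 0.66 and Tgfb1 0.2. Without both replicate 1 arrays they were Msln -0.48, Adgre1 -0.08, Alas1 -0.3, Wnt2 0.57, Tgfb1 0.29 and Fos 0.21. Fos stood at 0.03 with normexp and 0.05 with quantile or median scaling, and Alas1 at -0.15 as a mean of probes. Leaving out 1 array, the ranges were Msln -0.89 to 1.62, Adgre1 -1.27 to 1.78, Ptprc -2.02 to 1.31, S100a8 -2.68 to 1.04, Afp -1.42 to 0.17, Alas1 -0.16 to 0.25, Wnt2 -0.54 to 0.45, Shh -0.89 to 2.57, Tgfb1 -0.78 to 0.39 and Fos -0.49 to 0.35. The replicate number as a block, over the day 7 arrays, gave 0 genes at an adjusted p under 0.05 by limma and 1626 at an unadjusted p under 0.05. Deviations of same-numbered arrays correlated at 0.391, 0.0311 and 0.00468, and those of differently numbered arrays at -0.255 to 0.273. The labels do not say whether equal numbers mark the same sort or mice, and these values do not settle it. The arrays were therefore not paired. Probes not well above background give only bounds.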
